A study of Mus musculus with 20 samples.

Results

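The 9 genes described here encode Fam107a, a stress-linked actin regulator, the tensins Tns1, Tns2 and Tns3, the Cas scaffolds Nedd9 and Bcar1, the formin Daam1 and the Rab5 activators Rin1 and Rin2. They were listed by name from the 57126 genes counted, and all 9 passed the filter on low counts that left 18648 genes for testing. The 20 libraries come from poly(A) RNA of whole hippocampus of male C57BL/6 mice, all adrenalectomized. They form 4 groups of 5 libraries labelled biological replicates: wild-type PBS, wild-type dexamethasone, knockin PBS and knockin dexamethasone. Removal of the adrenal glands, at about 2.5 months of age and 2 weeks before tissue collection, was shared by all 4 groups and removes the main source of the body's own glucocorticoid. Knockin mice were homozygous for a glucocorticoid receptor gene (Nr3c1) whose exon 2 keeps the start codon of the full-length receptor, GRA, while the start codons of the shorter forms (GRB, GRC1 to GRC3 and GRD1 to GRD3) are mutated. An intraperitoneal injection of vehicle or of the synthetic glucocorticoid dexamethasone, 1 mg per kg, was given 6 h before collection. The comparisons ask which of these genes respond to dexamethasone and whether the response differs when only full-length receptor is made.

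These proteins sit between the cell surface and the actin cytoskeleton. Fam107a, also called DRR1, binds and bundles actin filaments, is made mainly by astrocytes and radial glia in the brain, and is known as a gene that rises in the hippocampus after stress or glucocorticoid. Tensins tie integrin tails to actin at adhesion sites, Cas proteins are docking platforms that adhesion kinases phosphorylate, Daam1 nucleates and elongates actin filaments downstream of Wnt signals, and Rin proteins load Rab5 with GTP on endosomes that carry receptors away from the surface. The glucocorticoid receptor is a ligand-activated transcription factor that binds paired hexamers spaced by a few bases.

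Fam107a had the highest level and the largest response of the 9. Unlike its outer promoter, the stretch shown here, before its inner start site, holds a match to a receptor motif. It is the 250 bases upstream of the inner start site in RefSeq, on the minus strand of GRCm38.p6, chr14:8309778-8310027, read 5′ to 3′. Capitals mark the only match among the members' upstream stretches to a relaxed receptor element, GNACANNNTGTNC.

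Fam107a inner promoter: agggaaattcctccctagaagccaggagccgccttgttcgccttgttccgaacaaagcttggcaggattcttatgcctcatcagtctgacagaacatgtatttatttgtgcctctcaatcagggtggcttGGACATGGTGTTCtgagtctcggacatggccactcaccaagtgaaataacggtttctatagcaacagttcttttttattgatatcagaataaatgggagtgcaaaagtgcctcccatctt

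The match, GGACATGGTGTTC, lies 120 to 108 bases before that start. A second RefSeq entry for the inner promoter is offset by a few bases and holds the same match, and the outer promoter, chr14:8317608-8317857, holds none. RefSeq entries were found for all 9 members, 13 upstream stretches in all, and motifs were searched on both strands. The relaxed element occurs in 0.387% of the 32851 stretches of the same length in the table, 127 of them. The stricter palindrome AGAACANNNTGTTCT occurs in 0.00913% and in no member. The single hexamer AGAACA, which overlaps both longer motifs, occurs in 16.1% of all stretches and in those of Fam107a and Daam1. The AP-1 motif TGANTCA (6.75% of stretches) and the CArG box, the site of serum response factor (1.47%), were in no member's stretch. The GC box GGGCGG, found in 32.7%, was in 6 stretches of 5 members (Tns1, Tns3, Nedd9, Bcar1 and Daam1). A match is a string of letters in a reference sequence, and binding was not measured in these samples.

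Libraries held 11493014 to 48267708 read pairs in genes. Nr3c1, the modified gene, was at 118 to 171 CPM (counts per megaread, scaled between libraries) in wild-type PBS and 142 to 197 CPM in knockin PBS. Under dexamethasone it was at 88.6 to 107 CPM in wild-type and 96.1 to 117 CPM in knockin libraries. Counts summed over all of Nr3c1 say nothing of its start codons and so do not check the genotype labels. As a check of treatment, 3 textbook receptor targets, Fkbp5, Tsc22d3 and Sgk1, rose in both genotypes, by 1.61, 1.70 and 1.47 on the log2 scale in wild-type mice and by 1.58, 1.82 and 1.48 in the knockin. Markers of the labelled tissue were present in every library, with summed levels of 7304 to 8820 CPM for 8 excitatory neuron genes and 7066 to 7883 CPM for 12 astrocyte genes. Wild-type PBS replicates 1 and 2 stood apart with 209 and 113 CPM of 8 liver genes. Choroid plexus genes reached 1798 CPM in replicate 4 of wild-type PBS and 1393 CPM in replicate 2 of knockin dexamethasone, the highest of the 20 libraries.

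Dexamethasone raised Fam107a, all 3 tensins and Rin2 in wild-type mice, by 1.37-fold to 2.27-fold. In knockin mice it raised Fam107a, Tns1, Tns3, Nedd9 and Rin2, by 1.33-fold to 2.84-fold. No member was called lower in either genotype. Bcar1, Daam1 and Rin1 passed the threshold (adjusted p below 0.05, edgeR's quasi-likelihood test with Benjamini-Hochberg adjustment over 18648 genes) in neither. In the wild-type comparison the threshold was passed by 5 of 9 members and by 9.21% of all tested genes, 5.27% higher and 3.94% lower. In knockin mice 5 of 9 were called, against 10.0% of all genes, 5.28% higher and 4.71% lower. For the response averaged over both genotypes 6 of 9 were called, all higher, against 18.2% of all genes, 9.79% higher and 8.41% lower. PBS and dexamethasone libraries did not overlap for 5 of 9 members in wild-type (8.22% of all genes) and for 5 of 9 in knockin mice (8.68% of all genes). The median log2 fold change of the members was 0.46 with the wild-type receptor and 0.41 in the knockin, beside -0.000507 and 0.00154 for all tested genes. The members were chosen with earlier results of these data known, so these shares and medians describe the 9 genes and do not test them as a set. In whole-tissue RNA, a change in the number of cells that make a transcript and a change in the transcript per cell cannot be told apart.

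**Figure D1:**
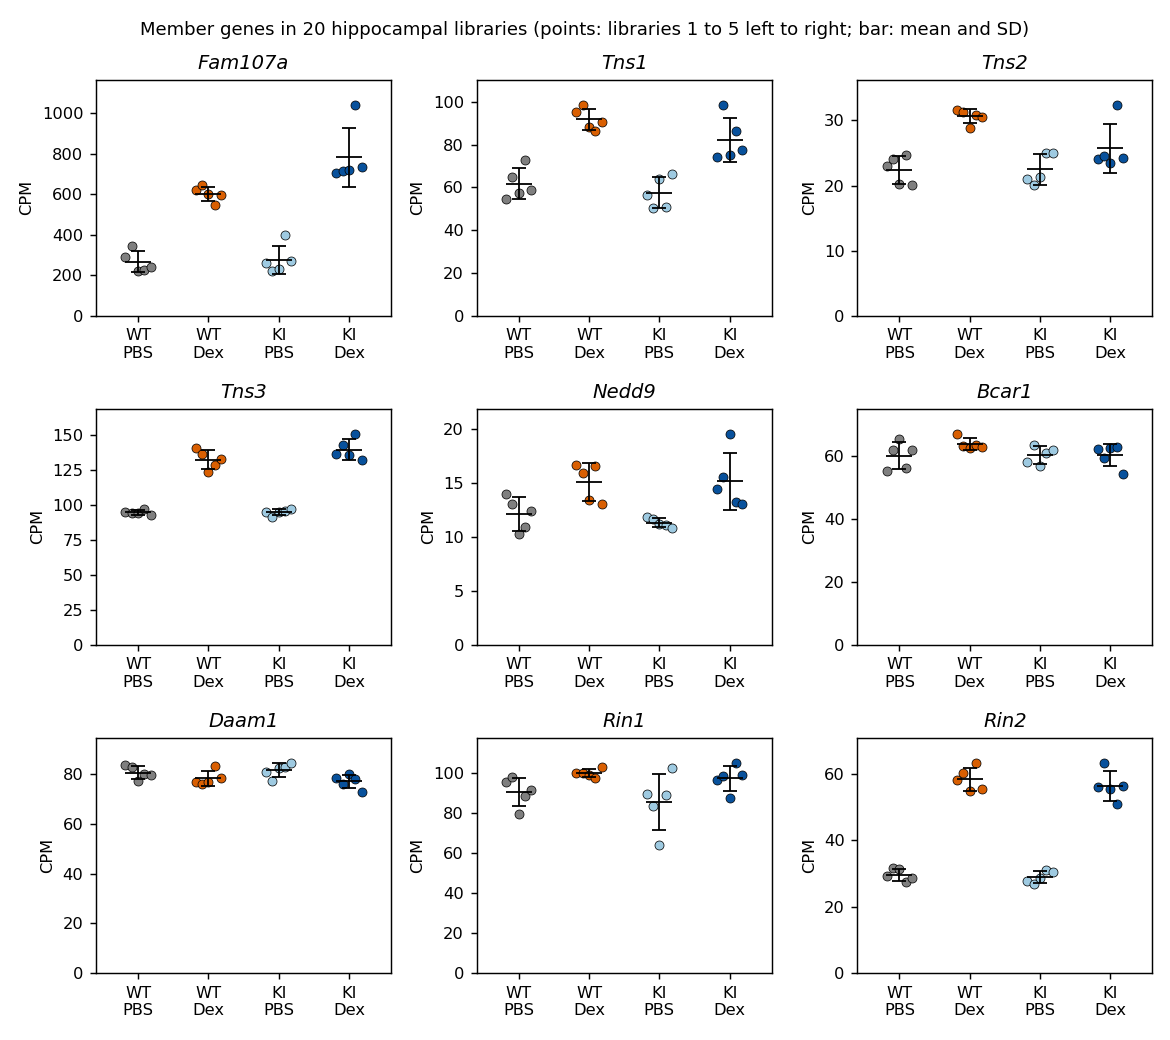
Level of each member gene in CPM (vertical axes, from 0) in the 4 groups (WT, wild-type; KI, knockin; Dex, dexamethasone). Points are the 5 libraries of a group and bars are the mean and SD; Fam107a, Tns1, Tns3 and Rin2 show no overlap between PBS and dexamethasone libraries in either genotype, and knockin replicate 4 stands above its group for Fam107a under both treatments.

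Fam107a (ENSMUSG00000021750.17, mm39 chromosome 14, 14151750 to 14173499, plus strand; the orientation differs between the builds) was the most abundant member. Its level in wild-type PBS replicates 1 to 5 was 291, 344, 222, 228 and 243 CPM, and in wild-type dexamethasone replicates 621, 644.5, 602, 549 and 598 CPM. Knockin PBS replicates had 258, 222, 229, 397 and 271 CPM, and knockin dexamethasone replicates 704, 718, 721, 1042 and 734 CPM. Every dexamethasone library was above every PBS library in both genotypes. The log2 fold change of Fam107a in wild-type mice was 1.18, with an SE of 0.16 and an edgeR adjusted p of 9.75e-05. In the knockin it was 1.51, with an SE of 0.16 and an adjusted p of 6.47e-06. The averaged response was 2.54-fold.

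The replicates of Fam107a were not equal in other respects. Knockin replicate 4 was the highest of its group under PBS and under dexamethasone, and these libraries also had the highest and second highest summed astrocyte markers of the 20, 7883 CPM in dexamethasone replicate 4 and 7621 CPM in PBS replicate 4. Without knockin PBS replicate 4 the knockin response was 1.68, and without knockin dexamethasone replicate 4 it was 1.38 (log2). Wild-type PBS replicates 1 and 2, the libraries with liver transcripts, were the highest of their group, and without them the wild-type response was 1.38 (SE 0.18, edgeR adjusted p = 0.000121).

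Summed astrocyte markers overlapped between treatments. The astrocyte sum ran from 7070 to 7475 CPM in wild-type PBS, 7066 to 7312 in wild-type dexamethasone, 7083 to 7621 in knockin PBS and 7158 to 7883 in knockin dexamethasone libraries, with no marker at 0 in any library. Within the list of 12, 3 genes rose and 2 fell in each genotype. Of all tested genes 5.27% rose and 3.94% fell in wild-type mice, and 5.28% rose and 4.71% fell in knockin mice. The radial glia list moved the other way from Fam107a: 4 of its 6 tested genes fell and none rose in each genotype. Of its 7 listed genes 1 was at 0 in a wild-type dexamethasone library. Its sum went from 219 to 233 CPM in wild-type PBS to 167 to 188 CPM under dexamethasone. For the knockin it went from 201 to 232 CPM under PBS to 163 to 175 CPM under dexamethasone. The part of cell composition in the Fam107a result was not tested. Fam107b, the paralogue of Fam107a, was at 11.3 to 15.7 CPM and was not called. Its log2 fold change in wild-type mice was -0.17 (SE 0.07, edgeR adjusted p = 0.201), and in the knockin -0.10 (SE 0.07, adjusted p = 0.517).

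Genes were ranked by how closely their log2 CPM followed Fam107a over the 20 libraries. The ranking held 12729 genes of sufficient level, without those that lack a symbol or carry a gene model name. The closest were Mt1 (Pearson r = 0.988), Glul (0.983), Glns-ps1 (0.981), Mt2 (0.979) and Mertk (0.976). Mt1 and Mt2 are metallothioneins that bind zinc and copper, Glul makes glutamine from glutamate in astrocytes, and Mertk is a receptor for engulfment of cell debris. Glns-ps1 is a pseudogene copy of Glul, so its reads may not be separable from those of Glul. These values describe libraries that share treatment groups. After each group's mean was subtracted, r was 0.95 for Mt1, 0.86 for Glul, 0.84 for Mt2 and 0.82 for both Mertk and Glns-ps1, and the high knockin replicate 4 libraries are among the points. Of the other members, Tns3 (r = 0.95, rank 31) and Rin2 (r = 0.92, rank 106) followed Fam107a most closely, and for both the value was lower within groups, 0.39 for Tns3 and 0.13 for Rin2. Tns2 had r = 0.72 over all libraries and 0.73 within groups. Knockin dexamethasone replicate 4, the highest of its group for both genes, is among those points, and r was not taken without it. Tns1, with r = 0.77 over all libraries, had -0.04 within groups.

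Tns1 (ENSMUSG00000055322.17, chromosome 1, 73949390 to 74163608, minus strand, mm39) encodes a large tensin with binding sites for actin and for integrin tails. Wild-type PBS replicates 1 to 5 had 54.5, 65.0, 57.3, 73.0 and 58.9 CPM, and wild-type dexamethasone replicates 95.3, 98.5, 88.4, 86.5 and 90.4 CPM. Knockin PBS replicates had 56.3, 50.5, 63.8, 50.8 and 66.4 CPM, and knockin dexamethasone replicates 74.3, 98.4, 75.1, 86.2 and 77.3 CPM. Treated and untreated libraries did not overlap in either genotype. Tns1 rose by 0.58 on the log2 scale in wild-type (SE 0.09, edgeR adjusted p = 0.000303) and by 0.52 in knockin mice (SE 0.09, adjusted p = 0.000792). The libraries high in choroid plexus transcripts, replicate 4 of wild-type PBS and replicate 2 of knockin dexamethasone, held the highest Tns1 of their groups. Without both, the log2 change of Tns1 was 0.64 in wild-type mice (adjusted p = 8.87e-06) and 0.45 in the knockin (0.000398).

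Tns3 (ENSMUSG00000020422.15, chromosome 11, 8381652 to 8614681, minus strand), a tensin found at adhesions of many cell types including oligodendrocytes, varied little between untreated mice. Its PBS levels were 95.1, 94.0, 94.4, 97.2 and 93.2 CPM in wild-type replicates and 95.03, 91.2, 95.1, 95.9 and 97.4 CPM in knockin replicates. Under dexamethasone they were 141, 136.5, 123.5, 129 and 133 CPM in wild-type and 136.5, 143, 136, 151 and 133 CPM in knockin replicates. The 10 treated libraries were all above the 10 untreated ones. The log2 fold change of Tns3 was 0.48 in wild-type (SE 0.04, edgeR adjusted p = 1.23e-09) and 0.56 in knockin mice (SE 0.04, adjusted p = 6.77e-11). Among all tested genes 5.27% were higher and 3.94% lower in wild-type mice, and 5.28% higher and 4.71% lower in knockin mice. Mature oligodendrocyte markers had 0 genes higher and 3 of 10 lower in each genotype. Their sums overlapped, at 4952 to 5397 CPM in wild-type PBS and 3804 to 5507 CPM after treatment. In knockin mice the mature sum was 4739 to 6486 CPM under PBS and 4773 to 5730 CPM under dexamethasone. Oligodendrocyte precursor markers had 3 of 6 higher and 0 lower in each genotype. The precursor sums were 206 to 233 CPM in wild-type PBS and 222 to 257.5 CPM after treatment. The precursor sum in knockin mice was 198 to 231 CPM under PBS and 226 to 258 CPM under dexamethasone. The part of these cell types in the Tns3 result was not tested.

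Tns2 (ENSMUSG00000037003.17, chromosome 15, 102011369 to 102024836, plus strand), a tensin with a phosphatase-like domain, rose in wild-type mice and missed the threshold in knockin mice. Its wild-type levels were 23.0, 24.1, 20.2, 24.7 and 20.1 CPM under PBS and 31.6, 31.2, 28.9, 30.9 and 30.6 CPM under dexamethasone. Knockin levels were 21.0, 20.1, 21.3, 25.0 and 25.0 CPM under PBS and 24.1, 24.6, 23.5, 32.4 and 24.2 CPM under dexamethasone. The wild-type groups did not overlap, whereas in knockin mice 4 of 5 treated libraries lay within the PBS range. For wild-type mice the Tns2 log2 fold change was 0.46 (SE 0.08, edgeR adjusted p = 0.000461), and for knockin mice 0.20 (SE 0.08, adjusted p = 0.141). Without knockin dexamethasone replicate 4, the library also highest in Fam107a and in astrocyte markers, the knockin value was 0.11 (SE 0.07, adjusted p = 0.445). The difference between these 2 responses did not pass its own test, given with the other genotype comparisons. The fourth tensin, Tns4, did not pass the filter, with mean levels of 0.110 to 0.224 TPM (transcript abundance scaled by gene length and library) over the groups.

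The Cas scaffolds differed among themselves. Nedd9 (ENSMUSG00000021365.16, chromosome 13, 41463057 to 41640769, minus strand), a docking protein for Crk and adhesion kinases that also acts in cell migration, was the least abundant member. Wild-type PBS replicates had 14.0, 13.0, 10.2, 10.9 and 12.4 CPM and wild-type dexamethasone replicates 16.6, 15.9, 13.4, 16.5 and 13.0 CPM, and these groups overlapped. Knockin PBS replicates had 11.8, 11.7, 11.2, 11.1 and 10.8 CPM and knockin dexamethasone replicates 14.4, 15.5, 19.5, 13.2 and 13.0 CPM, with no overlap. The log2 change of Nedd9 was 0.31 in wild-type (SE 0.10, edgeR adjusted p = 0.0583) and 0.41 in the knockin (SE 0.10, adjusted p = 0.00885). Its averaged response was 0.36 (adjusted p = 0.000652). The libraries with liver transcripts, wild-type PBS replicates 1 and 2, held the highest Nedd9 of that group. Without them the wild-type change was 0.42 (adjusted p = 0.0203), past the threshold. Without wild-type PBS replicate 1 alone it was 0.36 (adjusted p = 0.0297), without wild-type dexamethasone replicate 3 it was 0.36 (0.0365), and without wild-type dexamethasone replicate 5 it was 0.35 (0.0373). The other 7 omissions of 1 library left it short of the threshold, down to 0.24 (adjusted p = 0.198) without wild-type PBS replicate 3, and without the choroid plexus libraries it was 0.28 (adjusted p = 0.145). Exons of Nedd9 share 62 bases, 1.18% of its exonic length, with the antisense gene model Gm32401, which had 0 to 4 read pairs per library against 124 to 686 for Nedd9.

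Bcar1 (ENSMUSG00000031955.11, chromosome 8, 112437106 to 112470441, minus strand) encodes p130Cas, the founding member of the Cas scaffolds and a substrate of focal adhesion kinase and Src. Its level ran from 55.2 to 65.5 CPM in wild-type PBS, 62.6 to 67.0 in wild-type dexamethasone, 56.9 to 63.6 in knockin PBS and 54.3 to 62.7 in knockin dexamethasone libraries. The groups overlapped in both genotypes. The log2 difference of Bcar1 was 0.08 in wild-type (95% confidence interval -0.02 to 0.18) and 0.00 in knockin mice (-0.09 to 0.10). The Cas genes Efs and Cass4, which are not members, fell. Efs, an adaptor for Src family kinases, changed by -0.76 in wild-type (SE 0.12) and -0.67 in knockin mice (SE 0.11). Cass4, the fourth Cas gene, changed by -1.38 (SE 0.36, edgeR adjusted p = 0.0132) and -1.33 (SE 0.33, adjusted p = 0.0073), from a level under 1 CPM in every library.

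Daam1 (ENSMUSG00000034574.11, chromosome 12, 71877852 to 72039107, plus strand) differed little between treatments. It ranged from 77.0 to 83.3 CPM in wild-type PBS, 76.0 to 83.1 in wild-type dexamethasone, 76.9 to 84.4 in knockin PBS and 72.8 to 79.9 in knockin dexamethasone libraries. All groups overlapped. The log2 difference of Daam1 was -0.04 (95% confidence interval -0.12 to 0.03) in wild-type and -0.08 (-0.15 to -0.01, edgeR adjusted p = 0.186) in knockin mice. Its paralogue Daam2, a formin known in glia as a brake on oligodendrocyte maturation through Wnt signalling, rose by 0.71 in wild-type (SE 0.05) and by 0.80 in knockin mice (SE 0.05). Daam2 went from means of 58.1 and 59.2 CPM under PBS to 95.3 and 103 CPM under dexamethasone, in wild-type and knockin mice respectively.

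Rin2 (ENSMUSG00000001768.17, chromosome 2, 145627900 to 145729536, plus strand), a Rab5 activator that binds R-Ras and acts on adhesion receptors in endosomes, had the second largest response among the members. Its level in wild-type PBS replicates was 29.4, 31.6, 31.3, 27.3 and 28.5 CPM, and in wild-type dexamethasone replicates 58.0, 60.3, 54.7, 63.1 and 55.5 CPM. Knockin PBS replicates had 27.7, 26.7, 28.8, 30.9 and 30.4 CPM and knockin dexamethasone replicates 55.9, 63.2, 55.5, 50.8 and 56.3 CPM. The treated libraries stood clear of the untreated ones in both genotypes. The log2 fold change of Rin2 was 0.97 in wild-type (SE 0.06, edgeR adjusted p = 4.10e-12) and 0.97 in knockin mice (SE 0.06, adjusted p = 4.02e-12), 1.96-fold and 1.95-fold.

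Rin1 (ENSMUSG00000024883.9, chromosome 19, 5100509 to 5107099, plus strand) encodes a Ras effector that activates Rab5 and Abl kinases and is known for its expression in forebrain neurons. It ranged from 79.6 to 97.6 CPM in wild-type PBS, 97.3 to 103 in wild-type dexamethasone, 64.0 to 102 in knockin PBS and 87.5 to 105 in knockin dexamethasone libraries. The groups overlapped in both genotypes. The log2 change of Rin1 was 0.14 in wild-type (SE 0.08, edgeR adjusted p = 0.392), 0.19 in knockin mice (SE 0.08, adjusted p = 0.199) and 0.17 on average (adjusted p = 0.0636). Without knockin PBS replicate 5 the knockin change was 0.25 (adjusted p = 0.0391), past the threshold, and without knockin PBS replicate 3 it was 0.10 (adjusted p = 0.374). Without wild-type PBS replicate 3 the wild-type change was 0.09 (adjusted p = 0.679). Rin3, a low-abundance paralogue, rose by 0.57 in wild-type mice (SE 0.17, edgeR adjusted p = 0.0338) and had 0.53 in knockin mice (SE 0.17, adjusted p = 0.0531). Rinl, the remaining family gene, had 0.17 and 0.18 and was not called (adjusted p = 0.682 and 0.628).

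**Figure D2:**
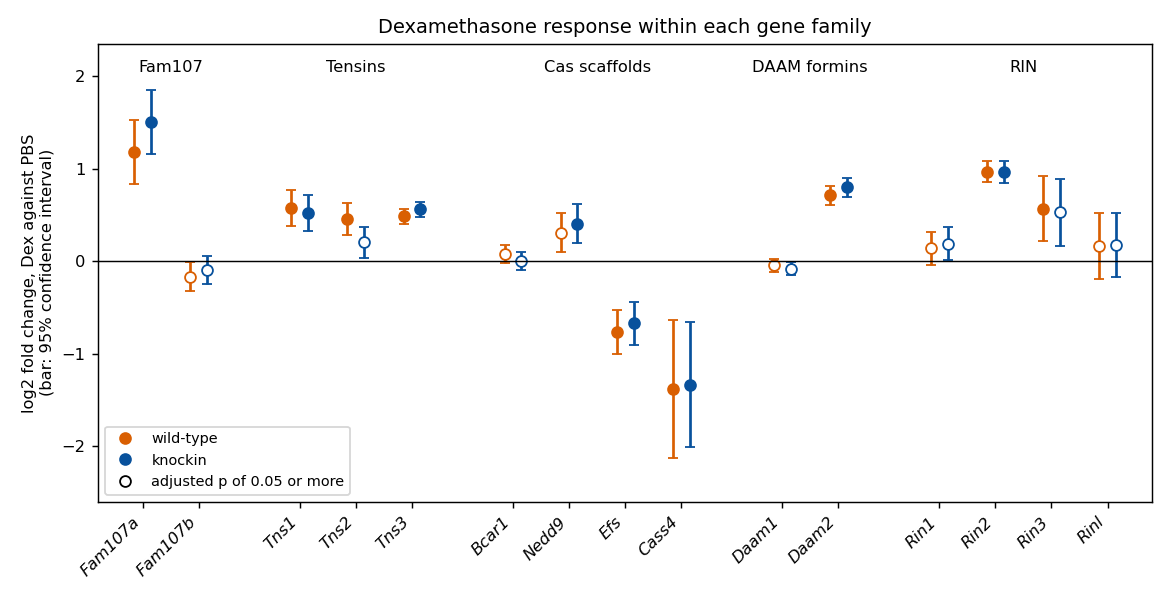
Log2 fold change of dexamethasone against PBS (vertical axis) for members and their family paralogues in wild-type (orange) and knockin mice (blue). Bars are 95% confidence intervals and open points have an adjusted p of 0.05 or more; within the Cas family Nedd9 lies above 0 while Efs and Cass4 lie below it, and Daam2 and Rin2 lie above 0 where Daam1 and Rin1 lie near it.

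Levels per gene length, in TPM, were compared between the members. In wild-type PBS the mean level of Fam107a was 205.5 TPM (SD 38.7, n = 5). Rin1 (59.5 TPM, SD 4.1) and Bcar1 (55.3 TPM, SD 4.09) followed, and their ranges over libraries overlapped. Daam1 was at 39.5 TPM (SD 1.34) and Tns3 at 34.9 TPM (SD 1.07). Next came Rin2 (18.5 TPM, SD 1.24) and Tns1 (17.3 TPM, SD 2.01), whose ranges also overlapped. Tns2 was at 13.7 TPM (SD 1.32) and Nedd9 at 6.86 TPM (SD 0.852). The other neighbours in this order did not overlap. After dexamethasone Fam107a reached 455 TPM (SD 19.1) in wild-type and 588 TPM (SD 102) in knockin mice, Tns3 reached 43.8 to 50.2 TPM and 47.5 to 53.1 TPM, and Rin2 reached 35.5 TPM (SD 2.64) and 34.1 TPM (SD 3.03).

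**Figure D3:**
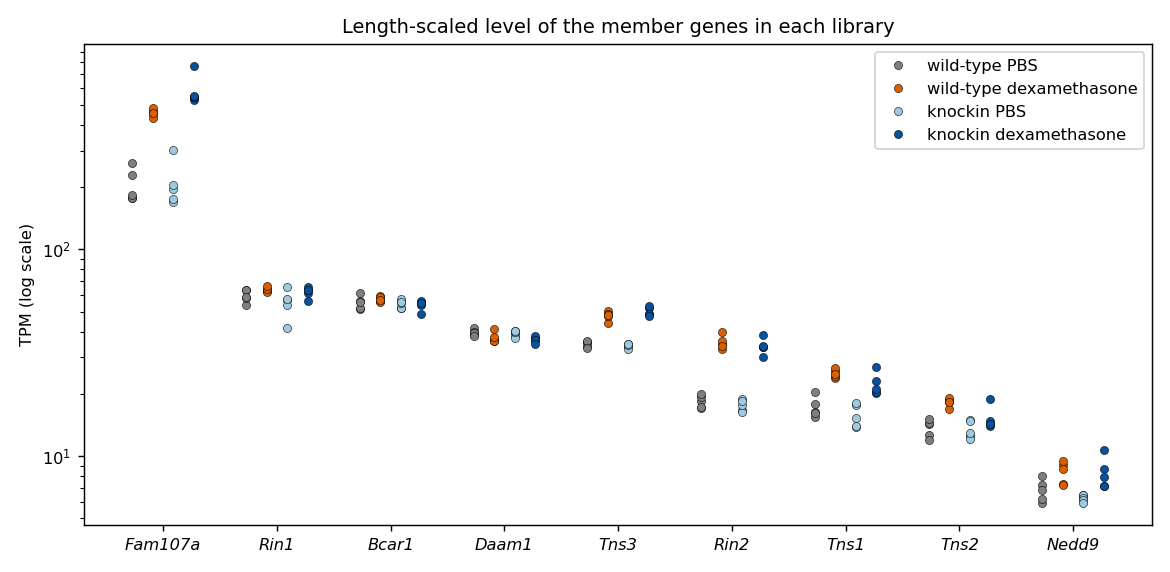
Level of each member in TPM (vertical axis, log scale) in every library, ordered by the wild-type PBS mean, with 1 column of 5 points per group. Fam107a lies above all other members in every group, from 169 to 770 TPM, and Nedd9 lies lowest.

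Genotype changed no member past the threshold. In PBS-treated mice 0 of 9 members were called between knockin and wild-type, and 0% of all 18648 genes were, with 673 at an unadjusted p under 0.05. No member's knockin and wild-type PBS libraries were without overlap, against 0.670% of all genes. Under dexamethasone 0 of 9 were called (0% of all genes, 828 at an unadjusted p under 0.05), and for the difference of the responses 0 of 9 (0% of all genes, 527 at an unadjusted p under 0.05). DESeq2 and limma-voom also called 0 genes in these comparisons. A fit to the dexamethasone libraries alone called 1 gene, Cd74, a chaperone of antigen presentation, lower in knockin mice (log2 -1.05, edgeR adjusted p = 0.0211), and no member.

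The largest genotype value among the members was that of Fam107a under dexamethasone. All 5 knockin libraries, 704 to 1042 CPM, were above all 5 wild-type libraries, 549 to 644.5 CPM, and it was the only member without overlap in that comparison (1 of 9, against 0.788% of all genes). The log2 difference of Fam107a was 0.38 (SE 0.16, 95% confidence interval 0.04 to 0.72). The unadjusted p was 0.0315 in edgeR's quasi-likelihood test, and the adjusted p was 0.9997. Without knockin dexamethasone replicate 4 the Fam107a difference was 0.25 (SE 0.15). Under PBS it was 0.05 (SE 0.16), with overlapping groups. The difference of the Fam107a responses was 0.33 (SE 0.23, interval -0.16 to 0.81, unadjusted p = 0.173 in edgeR). It moved by over 1.5 times with the libraries included and was 0.20 without knockin dexamethasone replicate 4, 0.50 without knockin PBS replicate 4, and 0.12 without the wild-type PBS libraries that held liver transcripts.

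Tns2 went the other way. Under dexamethasone it was lower in knockin than in wild-type mice by a log2 value of -0.25 (SE 0.08, interval -0.41 to -0.08, edgeR unadjusted p = 0.00583, adjusted p = 0.9997). In that comparison 4 of 5 knockin libraries were below all 5 wild-type libraries, and knockin dexamethasone replicate 4 was above them. The difference of the Tns2 responses was -0.25 (interval -0.50 to -0.01, unadjusted p = 0.0414, adjusted p = 1.00). Without that library the knockin value under dexamethasone was -0.35 (adjusted p = 0.489). The responses then differed by -0.35. The other 7 members had differences of responses from -0.08 (Bcar1) to 0.10 (Nedd9). For Rin2 the difference of responses was -0.00 (interval -0.17 to 0.16), for Tns3 0.08 (-0.03 to 0.19) and for Daam1 -0.04 (-0.14 to 0.07). For Tns1 it was -0.06 (-0.33 to 0.22), for Nedd9 0.10 (-0.20 to 0.40) and for Rin1 0.05 (-0.20 to 0.30), wider intervals than that of Tns3. The Tns1 value was -0.19 without the choroid plexus libraries and ran from -0.13 to -0.01 on leaving out 1 library, with no call.

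**Figure D4:**
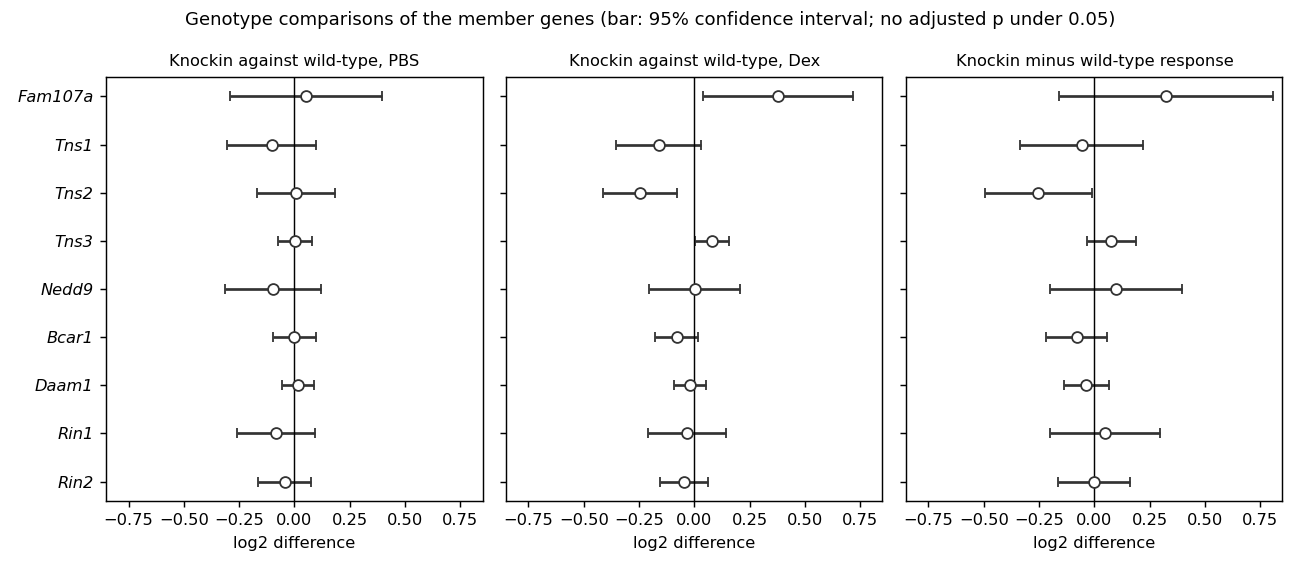
Log2 differences (horizontal axes) of the members between knockin and wild-type mice under PBS, under dexamethasone, and between the dexamethasone responses, with 95% confidence intervals. Intervals of Fam107a and Tns2 under dexamethasone lie on opposite sides of 0, at 0.38 and -0.25, and no adjusted p is under 0.05.

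Genes that work with the members were described from 4 lists of 116 genes in all. Their calls went in both directions, and the median log2 change of each list lay between -0.01 and 0.05 in both genotypes. For the response averaged over genotypes, 10 of 43 adhesion genes rose and 12 fell, 9 of 34 formins and actin regulators rose and 4 fell, 4 of 18 early endosome genes rose and 1 fell, and 7 of 20 actin filament genes rose and 3 fell. Of all tested genes 9.79% rose and 8.41% fell in that response. The lists too were chosen with earlier results of these data known. The counts for each genotype follow. Beside them, 5.27% of all tested genes rose and 3.94% fell in wild-type mice, and 5.28% rose and 4.71% fell in knockin mice. In the list of adhesion adaptors and kinases 7 of 43 tested genes rose and 6 fell in wild-type mice, and 9 rose and 9 fell in knockin mice. Ilk, a scaffold kinase on integrin tails, rose by 0.84 in wild-type (SE 0.19) and 0.92 in knockin mice (SE 0.19). Elmo1, part of a Rac activator downstream of Cas and Crk, rose by 0.57 and 0.56. Parvb, a partner of Ilk, rose by 0.34 and 0.26, and the integrin subunit Itgav by 0.25 and 0.40. On the other side were Cass4 and Efs, the laminin receptor subunit Itga6 (-0.32 and -0.55) and the integrin activator Fermt2 (-0.35 and -0.31).

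Among formins and other regulators of actin assembly 6 of 34 rose and 5 fell in wild-type mice, and 5 rose and 3 fell in knockin mice. Rhou, an atypical small GTPase, rose by 0.87 in wild-type and 0.83 in knockin mice, Daam2 by the values above, and Rhoj, a relative of Cdc42, by 0.70 and 0.45. The formin Fmnl3 changed by -0.38 and -0.33, and Rhoc by -0.24 and -0.31. Rnd3, which promotes loss of stress fibres, fell in wild-type mice (-0.34) and had -0.16 in knockin mice (edgeR adjusted p = 0.254). The neuronal formin Fmn2 fell by 0.14 and 0.19 on the log2 scale.

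In the list of Rab5 exchange and early endosome genes 3 of 18 rose and 1 fell in wild-type mice, and 2 rose and 1 fell in knockin mice. Rab31, a close relative of Rab5, rose by 0.61 and 0.60. Appl2, an effector of Rab5, changed by -0.43 and -0.36. Among actin filament genes and partners of Fam107a 1 of 20 rose and 1 fell in wild-type mice, and 2 rose and 3 fell in knockin mice. Lasp1, an actin-binding adhesion protein, changed by -0.27 and -0.31. Map1b, a microtubule-associated protein, rose by 0.18 in wild-type mice and had 0.10 in knockin mice (edgeR adjusted p = 0.134). In knockin mice the Arp2/3 activators Wasf2 (0.28) and Wasl (0.18) rose, and the filament cross-linkers Palld (-0.46) and Flna (-0.22) fell. In wild-type mice these 4 missed the threshold, at 0.23, 0.15, -0.29 and -0.13 respectively. No gene of the 4 lists was called for a difference of responses between the genotypes.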

How the data were processed

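Poly(A) RNA of hippocampus was sequenced as paired-end reads, per the labels' protocols, and the labels name the 5 libraries of each group biological replicates. The authors deposited raw counts of read pairs per gene, made with featureCounts 2.0.6 on the GENCODE M34 basic annotation with no strand option, per the file headers. The deposited files also hold each gene's exonic length, per the file headers, which was used as an other measure for TPM. The submitters' processing notes name STAR 2.5.1, mm39, Subread 1.5.1 and DESeq2 1.38.3. No source used here gives the alignment settings. Without strand, antisense overlaps cannot be told apart. No label names the animal behind a library; where 2 came from 1 mouse, their spread would be technical.

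Counts were tested with edgeR 4.0.16 (R 4.3.3): filterByExpr (minimum count 10, minimum total 15) left 18648 genes, TMM scaling, and a robust quasi-likelihood fit to all 20 libraries with 1 term per group. P-values were Benjamini-Hochberg adjusted over all 18648 genes and called below 0.05. The code was tested on simulated data. Correlations were taken on log2 CPM (prior count 2) over genes with a mean log2 CPM of at least 1. The ranking against Fam107a also left out genes that lack a symbol or carry a gene model name. Symbols came from a GRCm38 names table (51884 of 57126 identifiers matched), and upstream sequences from RefSeq, GRCm38.p6. No library pair within a group agreed within sampling noise (lowest chi-square per gene 2.56 over 40 pairs).

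Members and lists were chosen with earlier results of these data known. Named genes were all members, Nr3c1, 3 treatment checks, up to 3 called genes per list, direction and dexamethasone comparison, the 5 genes most correlated with Fam107a, and any gene called between genotypes. Fam107b, Rinl and Tns4, and the values of listed genes in the genotype where they were not called, were added after their values were seen. One gene that the rule names is left out of the text. Alternatives were DESeq2 1.42.0 (size factors, Wald test), limma-voom 3.58.1, no filter, a filter of 50 counts in 5 libraries, a replicate block, fits to the compared groups alone and leaving out each library. Leaving out the libraries high in liver or choroid plexus transcripts was added after seeing the data.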

Additional observations from a re-analysis of the deposited data

Results flagged for a closer look

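In 4 of the 36 groups of 5 libraries that the members make, 1 library lay far from the others by Dixon's 95% criterion, where chance gives about 1 in 20. Knockin PBS replicate 4 had 396.8 CPM of Fam107a, and the next library had 271 CPM. Knockin dexamethasone replicate 4 had 1042 CPM of Fam107a, next to 734 CPM. The same library had 32.4 CPM of Tns2, next to 24.6 CPM. Wild-type dexamethasone replicate 1 had 67.0 CPM of Bcar1, next to 63.4 CPM. The knockin replicate 4 libraries had the highest summed astrocyte markers of the 20 (7883 and 7621 CPM), and the part of this in their Fam107a and Tns2 levels was not tested.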

How the results depend on the processing

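All 16 member results called in the main analysis kept their direction and call in all 358 alternatives tried for them. Of 38 results not called, 13 changed sign somewhere, at a log2 size of at most 0.118 and an adjusted p of at least 0.923. Values with a changed sign were as follows. Without the filter: Tns2 under PBS, knockin against wild-type, -0.00495, Tns3 under PBS -0.00882, and the Rin2 difference of responses 0.00825. The Bcar1 knockin response was -0.0014 with the filter of 50 counts, -0.00104 with DESeq2 size factors, -0.000388 with DESeq2's Wald test, -0.00659 in the fit to the groups compared and -0.00365 without the liver libraries. With limma-voom, Fam107a under PBS was -0.00743, Tns2 under PBS -0.0181, Nedd9 under dexamethasone -0.0186 and the Rin2 difference 0.013. Nedd9 under dexamethasone was -0.00032 in the fit to the groups compared, -7.74e-05 without the liver libraries and -0.00996 without the choroid plexus libraries. Without the liver libraries Nedd9 under PBS was 0.0177, the Nedd9 difference -0.0178 and the Rin1 difference -0.0175.

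Leaving out 1 library gave these ranges for results that changed sign: Bcar1 knockin response -0.0173 to 0.0361; knockin against wild-type under PBS, Bcar1 -0.0308 to 0.0317, Daam1 -0.0012 to 0.0339, Fam107a -0.118 to 0.163, Rin1 -0.148 to 0.00315, Tns2 -0.0407 to 0.0425 and Tns3 -0.0055 to 0.0145. Under dexamethasone the ranges were -0.034 to 0.000244 for Daam1 and -0.09998 to 0.0467 for Nedd9, and for the differences of responses -0.00367 to 0.159 for Nedd9, -0.0389 to 0.112 for Rin1 and -0.0488 to 0.0327 for Rin2. The averaged Daam1 and Rin1 responses, the Rin1 response in knockin mice and the Nedd9 response in wild-type mice crossed the threshold in some settings. For Daam1 the averaged response was -0.06 (edgeR adjusted p = 0.0948). Its lowest adjusted p on leaving out 1 library was 0.0407, in the direction of a fall. For Rin1 the averaged response crossed it with DESeq2's Wald test (adjusted p = 0.0327), limma-voom (0.0478) and without the liver libraries (0.0499). Nedd9 in wild-type mice crossed it with DESeq2's Wald test as well (adjusted p = 0.0426). On leaving out 1 library, genes called ran from 1288 to 1692 in wild-type and from 1501 to 1955 in knockin mice. The fit to the dexamethasone libraries alone called 1 gene between genotypes.

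Same-numbered libraries did not pair throughout: over 30 pairs r ran from -0.19 to 0.349, 6 pairs were over 0.1, and 6 of 20 libraries matched their own number best. The highest values were 0.349 for replicate 3 of wild-type PBS and knockin PBS, and 0.345 for replicate 4 of knockin PBS and knockin dexamethasone. What such pairs share was not tested. With the replicate block 5, 5 and 7 members were called for the wild-type, knockin and averaged responses (1643, 1843 and 3367 genes), Rin1 averaged 0.17 (adjusted p = 0.00969), and Tns2 under PBS was -0.00601. Nedd9 had 124 to 686 read pairs per library.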
